A study of Mus musculus with 5 samples.

Results

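The vascular endothelial growth factor (VEGF) family was followed through normal and tumor endothelium of mouse liver. Its 9 genes comprised the ligands Vegfa, Vegfb, Vegfc and Pgf, the receptors Flt1, Kdr and Flt4, and the co-receptors Nrp1 and Nrp2. They were taken by gene name, without regard to their signals, and were measured by 27 of the 56605 probes on the array, which carried 37074 gene names in all. Each probe was represented by 1 spot, and none of these spots was flagged as uneven or as an outlier. All 27 probes were well above background on at least 1 array and 14 of them on all 5 arrays.

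VEGF-A is the main growth and permeability factor of blood vessels and acts through VEGFR-2, the product of Kdr, while VEGFR-1, the product of Flt1, binds VEGF-A, VEGF-B and placental growth factor and limits the ligand available to VEGFR-2. VEGF-C and its receptor VEGFR-3, the product of Flt4, act mainly on lymphatic endothelium. Neuropilins bind ligands and strengthen receptor signaling, and they also bind class 3 semaphorins together with plexins. In the liver, sinusoidal endothelial cells carry high levels of VEGF receptors, and VEGF-A made by hepatocytes helps to maintain their fenestrated state.

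The arrays held RNA of liver sinusoidal endothelial cells (LSECs) from mouse liver, of tumor endothelial cells (TECs) from tumors of 3 hepatoma lines, HAK-1B, Hepa1-6 and KYN-2, and of Hepa1-6 cells in culture, 1 array each. No drug or microRNA treatment is labelled for any of them. The labels give the strain C57BL/6 for LSECs and for all 3 TECs, and C57L for the Hepa1-6 cells, whereas the methods name female C57BL/6 or BALB/c nu/nu mice aged 6 weeks without saying which mice carried which tumor. Hepa1-6 comes from a mouse hepatoma, and both other lines are human and were grown in the mouse liver. The label names HAK1B where the array paragraph of the methods names Huh-7. TECs were taken from digested tumors with magnetic beads against CD31, so that other cells with CD31 at their surface would be retained. The paper measured the purity of isolated LSECs and of TECs from each line by fluorescence-activated cell sorting. It regarded some carryover of cancer cells as unavoidable and took genes related to such cells out of its list. No such removal was made here. The number of animals behind each array is not stated in the sources used here, and the binding of human transcripts to these mouse probes was not tested.

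Signals were put on the log2 scale and quantile normalized over the 5 arrays, so that 1 unit is a doubling or halving. No condition had a second array, so there was no replicate check, and precision was limited by the number of arrays. The error estimate that the scanner software gave for single spots of the family lay between 10% and 22.3% of the signal, with a median of 10.04%, where the spot was well above background. All TEC arrays shared 1 slide, the other arrays having slides of their own, so that slide and group cannot be told apart. Probes well above background made up 78.1% of the Hepa1-6 TEC array and 44.6% to 57.6% of the others. On that array the hepatoma markers stood apart. Afp lay at 15.38 in Hepa1-6 TEC and 15.92 in Hepa1-6 cells, against 7.80 in LSEC. It lay at 6.21 and 8.06 in the TECs of the human lines. All 7 hepatoma markers were well above background in Hepa1-6 TEC, but 4 in Hepa1-6 cells, where H19, Igf2 and Epcam were not.

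Of the 14 pan-endothelial markers, all were well above background on the LSEC array and on each TEC array, and 4 on the array of Hepa1-6 cells. Their summed linear signal was 478201 in LSEC and lower in the TECs, with 82531 for HAK-1B, 82130 for Hepa1-6 and 172091 for KYN-2. Pecam1, which encodes CD31 itself, lay at 11.10 in LSEC, with TEC values of 9.93 (HAK-1B), 9.15 (Hepa1-6) and 11.01 (KYN-2). All 13 LSEC markers were also above background on all 4 endothelial arrays.

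Probe sequences are shown where the finding depends on what a probe reads. Positions are those of the array files, on mm9. The first probe below, at chr17:46159226-46159282 on the minus strand, is a Vegfa probe whose capitals mark codons for lysine or arginine, which made up 10 of the 19 codons in the frame that carries them. The longer heparin-binding forms of VEGF-A are known for such a basic stretch, but the probe was not matched to an exon here. The second is the Vegfc probe at chr8:55244696-55244755 on the plus strand, on which the TECs differed in direction. The third is the run of 28 alternating bases inside the brightest Nrp2 probe, at chr1:62843061-62843120 on the plus strand.
Vegfa basic-codon probe: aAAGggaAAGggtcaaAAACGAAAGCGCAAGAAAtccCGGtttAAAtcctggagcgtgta
Vegfc: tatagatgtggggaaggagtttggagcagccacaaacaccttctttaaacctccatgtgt
Nrp2 run: gtgtgtgtgtgtgtgtgtgtgtgtgtgt

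Vegfa, the main ligand, was higher in all 3 TECs than in LSEC, by 8.27-fold to 116-fold on 3 of its 4 probes. On the Vegfa probe farthest from the end of the transcript the log2 signal was 6.79 in LSEC, 12.79 in HAK-1B TEC, 11.47 in Hepa1-6 TEC, 12.12 in KYN-2 TEC and 7.84 in cultured Hepa1-6 cells. All 3 TECs stood far above both LSEC and the cultured tumor cells, with folds over LSEC of 63.8, 25.6 and 40.2. On the probe at 46155512 the log2 signals were 6.91, 13.77, 12.34, 12.996 and 9.26 in the same order of arrays. The brightest probe, at 46154387 and nearest the end of the transcript, gave 8.71, 14.54, 11.76, 13.56 and 8.65. The order on this probe was HAK-1B TEC, KYN-2 TEC, Hepa1-6 TEC, LSEC and Hepa1-6 cells, with steps of 0.99, 1.80, 3.05 and 0.05, and the last step was within the error estimate of a single spot.

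The Vegfa probe printed above, with its basic codons in capitals, moved far less. It gave 7.06 in LSEC, 7.60 in HAK-1B TEC, 8.39 in Hepa1-6 TEC, 7.51 in KYN-2 TEC and 6.06 in cultured Hepa1-6 cells. It was well above background on all 5 arrays, and its folds over LSEC were 1.45, 2.51 and 1.37, none of which passed the rule of size. Levels of different probes cannot be compared on an array, but the change from LSEC to TEC was unequal between this probe and the other 3. The distribution of transcript forms within each probe's signal was not tested.

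Cultured Hepa1-6 cells, the tumor line itself, had less Vegfa signal than the endothelium of Hepa1-6 tumors. Hepa1-6 TEC exceeded the cells by 12.4-fold, 8.44-fold and 8.59-fold on the 3 probes that were high in TECs and by 5.02-fold on the basic-codon probe. For the human lines HAK-1B and KYN-2 no array of the cultured cells was analysed here. Markers of cells that can make VEGF-A also moved. The 11 neutrophil genes had a median log2 ratio to LSEC of 4.57, 3.31 and 1.07 in the TECs of HAK-1B, Hepa1-6 and KYN-2, and their summed signal was 93993 in LSEC and 202764, 67647 and 81309 in the TECs. The 11 macrophage genes had medians of 0.04, -1.51 and -1.003 and summed signals of 616934, 685574, 391076 and 513258. Ly6g, Cxcr2, Ltf and Ngp were not above background in LSEC, and of the macrophage genes none was below background on any endothelial array. The 7 hepatoma genes had medians of -0.43, 5.26 and 0.83. The part of these cells in the Vegfa signal was not tested.

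**Figure D1:**
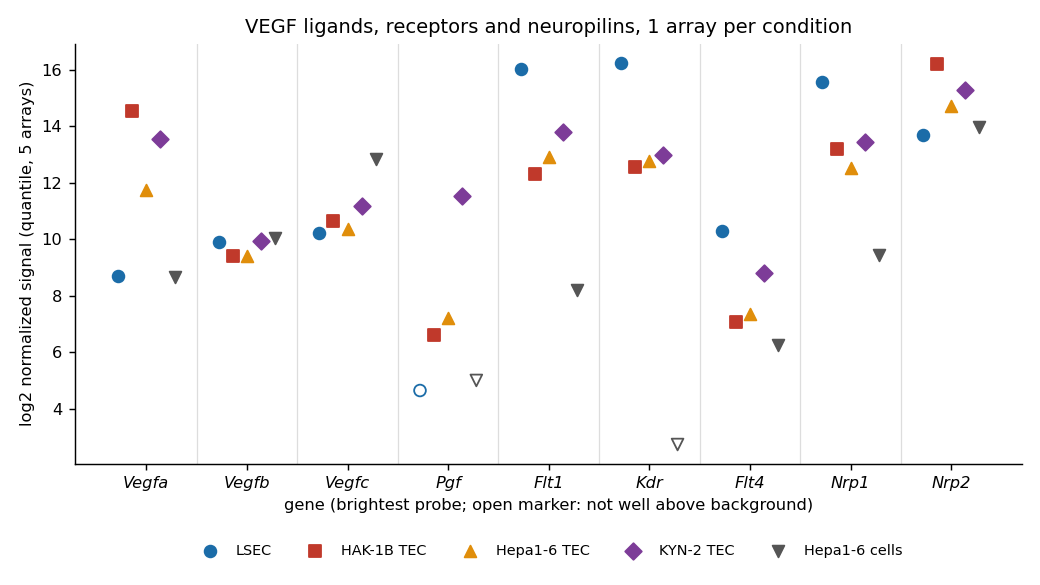
Log2 quantile-normalized signal (vertical axis) of the brightest probe of each of the 9 genes (horizontal axis) on the 5 arrays, 1 marker per array and open where the probe was not well above background. Vegfa lay at 11.76 to 14.54 in TECs against 8.71 in LSEC, and Flt1, Kdr, Flt4 and Nrp1 were each highest in LSEC.

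The other ligands showed separate patterns. Pgf, the placental growth factor that binds VEGFR-1, was not well above background in LSEC (4.65) or in Hepa1-6 cells (5.005). It lay at 6.62 in HAK-1B TEC, at 7.21 in Hepa1-6 TEC and at 11.54 in KYN-2 TEC. Folds over LSEC were set against the lowest signal that counted as well above background there. Pgf was higher by at least 3.85-fold in HAK-1B TEC, at least 5.79-fold in Hepa1-6 TEC and at least 117-fold in KYN-2 TEC. These bounds hold only for the quantile scale used here. With normexp background correction the log2 ratios to LSEC were smaller, at 0.83, 1.25 and 5.05. KYN-2 TEC also exceeded HAK-1B TEC by 30.3-fold and Hepa1-6 TEC by 20.1-fold, and only there did Pgf pass the rule of size.

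Vegfb, a ligand of VEGFR-1 with weak angiogenic activity, was nearly flat. Its log2 signal was 9.92 in LSEC, 9.40 in HAK-1B TEC, 9.41 in Hepa1-6 TEC, 9.96 in KYN-2 TEC and 10.06 in cultured Hepa1-6 cells, a range of 0.66. The KYN-2 TEC and LSEC values and those of HAK-1B TEC and Hepa1-6 TEC differed by 0.04 and 0.01, within the error estimate of a single spot.

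Vegfc, the lymphatic growth factor, was highest in the cultured tumor cells on all 3 of its probes. The brightest, at 55271533, gave 10.21 in LSEC, 10.64 in HAK-1B TEC, 10.37 in Hepa1-6 TEC, 11.18 in KYN-2 TEC and 12.86 in cultured Hepa1-6 cells. The probe made for the record of a splice form (isoform 62) gave 8.49, 8.89, 8.76, 9.53 and 10.93. The cells exceeded LSEC by 6.26-fold and 5.43-fold on these probes. The probe printed above gave 5.99, 6.49, 4.91, 7.31 and 8.33. It was the 1 Vegfc probe on which Hepa1-6 TEC lay below LSEC, by 2.11-fold, while KYN-2 TEC lay 2.50-fold above it. Before normalization the LSEC and Hepa1-6 TEC signals of this probe were 68.9 and 69.0. The log2 ratio of Hepa1-6 TEC to LSEC was -1.08 here, -0.10 on the 75th percentile scale and -0.46 with normexp background correction. None of the Vegfc changes passed the rule of size.

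Kdr, the receptor that carries most VEGF-A signaling, was lower in each TEC than in LSEC and scarcely measured in the tumor cells. Its brightest probe, at chr5:76329309-76329368 on the minus strand, gave 16.24 in LSEC, 12.55 for TECs of HAK-1B, 12.77 for those of Hepa1-6 and 13.004 for those of KYN-2. The TECs lay within 0.45 of each other, and 12.95-fold, 11.1-fold and 9.45-fold below LSEC. Signals on a bulk array cannot tell fewer cells of a type from less RNA per cell. In Hepa1-6 cells Kdr was not well above background (2.74), and Hepa1-6 TEC was at least 112-fold higher than the cells. The pan-endothelial markers were also lower in TECs, with a median log2 ratio of -2.23, -2.45 and -1.38, against -3.70, -3.48 and -3.24 for Kdr. Their mean ratios over the TECs ran from -3.85 for Tek to -0.68 for Vwf, with -3.47 for Kdr. Pecam1, which encodes the CD31 used to select the cells, was among the least changed, at -1.17, -1.95 and -0.09. The part of endothelial content in the Kdr change was not tested.

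The remaining Kdr probes were dim. The probe for a record of soluble VEGFR-2, at 76353385, was well above background only in Hepa1-6 TEC, where it lay at 3.01, so it gives no fold. The probe at 76357639 gave 5.74 in LSEC and 3.70 in Hepa1-6 TEC and was not above background on the other arrays. It was at least 2.76-fold lower in the HAK-1B TECs and at least 2.14-fold lower in those of KYN-2.

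Flt1, the decoy-like receptor, was lower in all 3 TECs at the end of its full-length transcript, and differed less and not in 1 direction at a pair of probes in the middle of the gene. The full-length probe at chr5:148373791-148373850 gave 16.04 in LSEC, 12.31 in HAK-1B TEC, 12.92 in Hepa1-6 TEC, 13.80 in KYN-2 TEC and 8.19 in cultured Hepa1-6 cells. The TECs were 13.2-fold, 8.70-fold and 4.73-fold below LSEC, and only HAK-1B TEC passed the rule. A pair of probes lay 75.1 and 76.9 kb upstream of it, on an Ensembl transcript that ends within the gene. The probe at 148450688 gave 10.74, 10.57, 10.58 and 12.29 in LSEC and the TECs of HAK-1B, Hepa1-6 and KYN-2, which placed KYN-2 TEC 2.93-fold above LSEC and the other TECs within 1.13-fold of it. The probe at 148448888 gave 12.32, 10.93, 10.81 and 12.45, so that HAK-1B TEC was 2.63-fold and Hepa1-6 TEC 2.84-fold below LSEC, short of the rule, and KYN-2 TEC 1.09-fold above it. Flt1 is known to yield a soluble receptor from transcripts that end early, but the files do not name these probes as soluble. Both were below background in Hepa1-6 cells, at 4.99 and 4.87. The dim probe farthest upstream gave 5.30, 4.64, 2.96, 4.92 and 2.30, the last not above background.

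Flt4, the lymphatic and sinusoidal receptor VEGFR-3, gave 10.30 in LSEC, 7.08 in HAK-1B TEC, 7.37 in Hepa1-6 TEC, 8.82 in KYN-2 TEC and 6.25 in cultured Hepa1-6 cells on its single probe. TECs were 9.29-fold, 7.64-fold and 2.79-fold below LSEC, and HAK-1B TEC passed the rule. On their brightest probes Flt1, Kdr and Flt4 had the same order of arrays, LSEC, KYN-2 TEC, Hepa1-6 TEC, HAK-1B TEC and Hepa1-6 cells. The steps among the TECs were small for Kdr, 0.24 and 0.22, and larger for Flt1, 0.88 and 0.61, and for Flt4, 1.45 and 0.28.

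**Figure D2:**
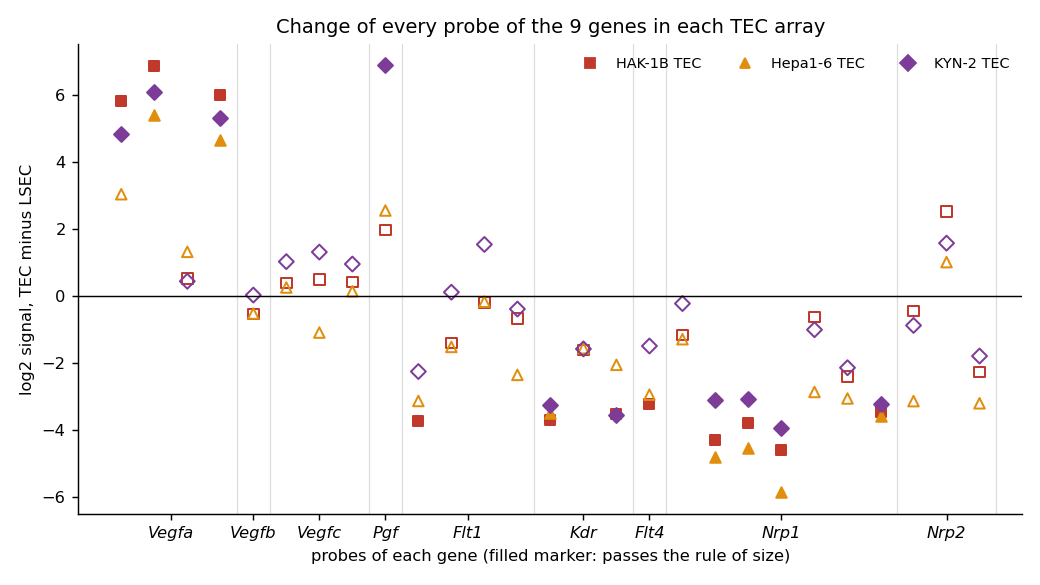
Log2 signal of each TEC array minus LSEC (vertical axis) for all 27 probes, grouped by gene and ordered by position (horizontal axis), with filled markers where the rule of size was passed. Vegfa is high on 3 of 4 probes, Kdr and Nrp1 are low, and the 3 Nrp2 probes lie on both sides of 0, while the Pgf differences are taken from an LSEC signal below background.

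Nrp1, the co-receptor of VEGFR-2, was lower in TECs than in LSEC on all 7 of its probes. The brightest, at chr8:131027137-131027196 on the plus strand, gave 15.58 in LSEC, 13.20 in HAK-1B TEC, 12.53 in Hepa1-6 TEC, 13.45 in KYN-2 TEC and 9.43 in cultured Hepa1-6 cells. TECs were 5.22-fold, 8.26-fold and 4.37-fold below LSEC on it, short of the rule. At 4 of the other probes all 3 TECs passed the rule. Of these, the probe at 130985912 changed most, from 9.05 in LSEC to 4.47, 3.20 and 5.11, which is 23.9-fold, 57.7-fold and 15.3-fold lower. The TEC signals lay near the lowest signals well above background (4.28, 2.85 and 4.65). The log2 ratios were -4.81, -4.40 and -4.09 on the 75th percentile scale. With normexp background correction they were -2.86, -3.15 and -2.69, less than the -3.86, -4.22 and -2.93 of the probe at 130889083. The probe at 130889083 gave 11.73 and then 7.45, 6.93 and 8.64. The probe at 130952310 gave 9.19 and then 5.40, 4.67 and 6.11. These 3 probes were made from cDNA clones rather than from the reference transcript. The fourth, at 131028306 near the end of the reference transcript, gave 11.37 and then 7.93, 7.79 and 8.14.

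The probes at 130992273 and 130884009 changed least. The former gave 10.18 in LSEC and 9.56, 7.32 and 9.18 in the TECs of HAK-1B, Hepa1-6 and KYN-2, so that only Hepa1-6 TEC was far below, by 7.22-fold. The latter gave 6.24, 5.09, 4.97 and 6.03. In Hepa1-6 cells 5 of the 7 Nrp1 probes were not above background.

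**Figure D3:**
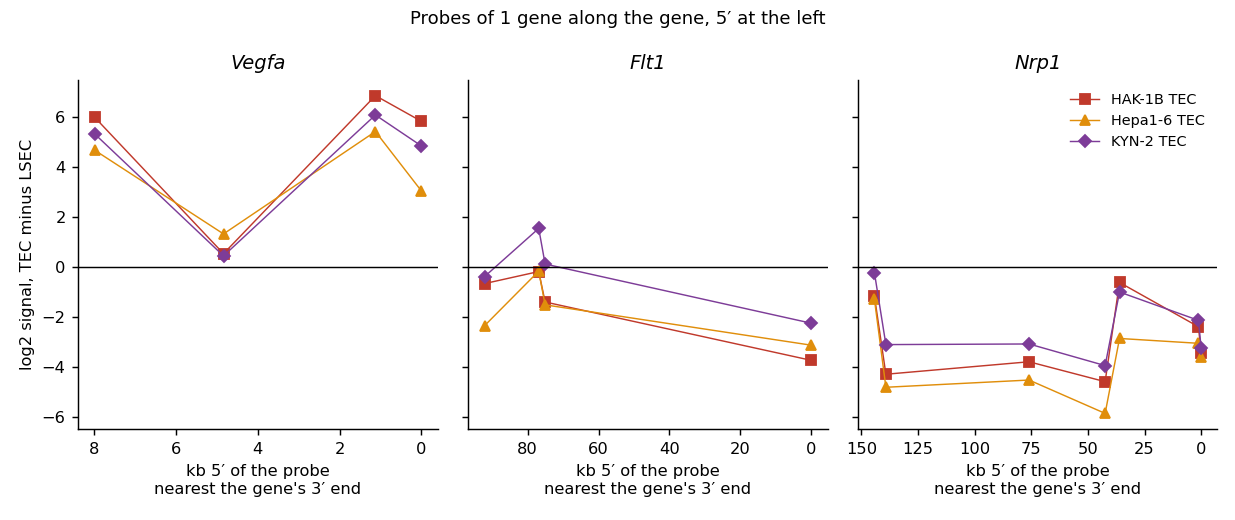
Log2 signal of each TEC minus LSEC (vertical axis) for the probes of Vegfa, Flt1 and Nrp1 against distance in kb from the probe nearest the 3′ end of the gene (horizontal axis), 1 line per TEC. The Vegfa probe at 4.84 kb lies at 0.54, 1.33 and 0.45 while the other Vegfa probes lie at 3.05 to 6.86, and the Flt1 probe at the 3′ end is the lowest of its gene in all 3 TECs.

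For Nrp2, the co-receptor that pairs with VEGFR-3, the direction depended on the probe. The probe at chr1:62865129-62865188, near the end of the long transcript, gave 15.34 in LSEC, 13.09 in HAK-1B TEC, 12.15 in Hepa1-6 TEC, 13.56 in KYN-2 TEC and 9.42 in cultured Hepa1-6 cells. It was 4.77-fold, 9.12-fold and 3.44-fold lower in TECs. The probe at 62818403 gave 8.42, 7.99, 5.30 and 7.56 and was below background in the cells. The brightest probe, at 62843061, went the other way, with 13.69, 16.22, 14.71, 15.27 and 13.99, or 5.78-fold, 2.03-fold and 3.01-fold higher in TECs.

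That probe holds the run of 28 alternating G and T bases printed above. On the array 47 other probes held such a run of at least 20 bases, and all 47 were well above background on an endothelial array. Their median log2 signals were 14.21 in LSEC, 16.37 in HAK-1B TEC, 14.85 in Hepa1-6 TEC, 15.37 in KYN-2 TEC and 14.21 in cultured Hepa1-6 cells. Their median log2 ratios to LSEC were 2.14, 0.67 and 1.25, beside 2.53, 1.02 and 1.59 for the Nrp2 probe. No other probe of the family held such a run. Over the 3 Nrp2 probes the median log2 ratio was -0.43, -3.13 and -0.87. What the bright probe binds was not tested.

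**Figure D4:**
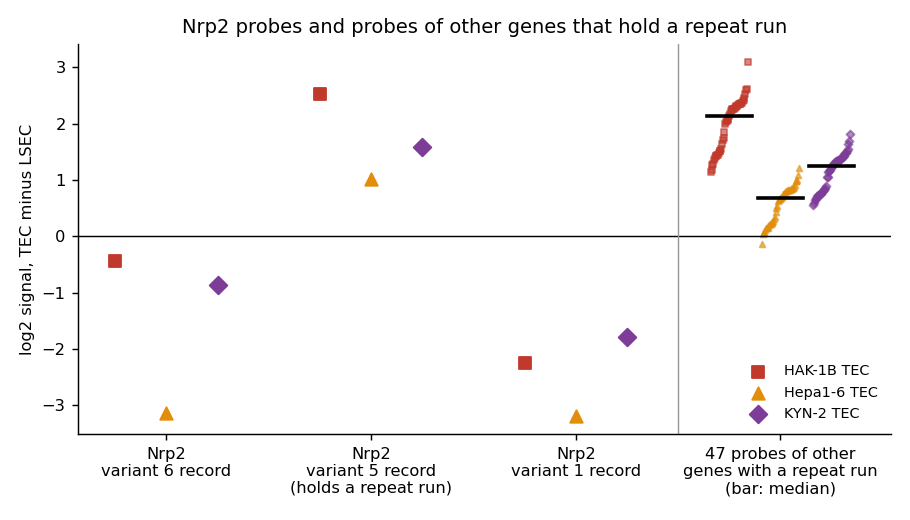
Log2 signal of each TEC minus LSEC (vertical axis) for the 3 Nrp2 probes and for 47 probes of other genes that hold a run of at least 20 alternating G and T bases (horizontal axis), with bars at the medians. The Nrp2 probe with the run lies at 2.53, 1.02 and 1.59, near the medians of 2.14, 0.67 and 1.25 of the other probes with a run, and the remaining Nrp2 probes lie below 0.

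A probe was called by the rule of size in the methods when it had a ratio of 1.5 or more and a Z-score of 2 or more, or a ratio of 0.66 or less and a Z-score of -2 or less. The Z-score scaled a log2 ratio by the spread over all kept probes, and in effect asked for 7.25-fold up or 6.91-fold down in HAK-1B TEC, 11.4-fold or 9.84-fold in Hepa1-6 TEC, 6.79-fold or 6.77-fold in KYN-2 TEC, and 39.8-fold or 51.2-fold in Hepa1-6 cells. In all 3 TECs at once, 2 of the 26 kept probes of the family were called higher, both of Vegfa, and 5 lower, 1 of Kdr and 4 of Nrp1. On the 75th percentile scale the Kdr probe lost its call in KYN-2 TEC, at a log2 ratio of -2.74, which left Vegfa and Nrp1. Over the whole array 0.515% of kept probes were called higher and 0.858% lower in all 3 TECs. Probes of 1 gene share a target and the 3 comparisons share 1 LSEC array, so these counts are not independent. Leaving out the Hepa1-6 TEC array, on which the hepatoma markers stood apart, could by construction only keep or add genes. It added none to Vegfa, Kdr and Nrp1. The array stayed in the normalization, so the part of tumor cells in these calls was not tested.

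In HAK-1B TEC 5 of the 9 genes were called, with Vegfa higher and Flt1, Kdr, Flt4 and Nrp1 lower, on 3 higher and 8 lower of 26 kept probes. The array-wide shares were 2.77% higher and 3.41% lower. In Hepa1-6 TEC 3 genes were called, with 2 higher and 5 lower of 27 kept probes against 3.77% and 1.94% over the array. In KYN-2 TEC 4 genes were called, with 4 higher and 6 lower of 26 kept probes against 3.29% and 2.52%. The lower calls in HAK-1B TEC and KYN-2 TEC include the Kdr probe at 76357639, which was not above background in either. Its bounds there were at least 2.76-fold and 2.14-fold lower, short of the 6.91-fold and 6.77-fold needed. In Hepa1-6 cells 8 of 25 kept probes were lower and none higher than in LSEC, against 4.04% and 2.16%. These were probes of Flt1, Kdr, Nrp1 and Nrp2. The cells were not above background on the brightest Kdr probe or the called Flt1 probes at 148450688 and 148448888. The same held for the called Nrp1 probes at 130889083 and 130985912. The bounds at 148450688 and 130985912 were at least 27.5-fold and 8.50-fold lower, short of the 51.2-fold needed.

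As a separate test the 3 TECs were fitted as 1 group against the LSEC array with limma, with 2 residual degrees of freedom and with the same spread assumed for the lone LSEC array. None of the 27 probes passed a Benjamini-Hochberg adjusted p of 0.05 in limma, and the smallest adjusted p was 0.443. Over the array 0% of 42113 probes passed. At an unadjusted p under 0.05 in limma there were 14 of the 27 probes, of Vegfa, Flt1, Kdr, Flt4, Nrp1 and Nrp2, beside 8.5% of all probes. The fitted log2 difference was 6.13 ± 0.74 (SE) for the Vegfa probe at 46155512 and 0.77 ± 0.61 for the basic-codon probe. It was -3.47 ± 0.51 for the brightest Kdr probe, -3.03 ± 0.75 for full-length Flt1 and -3.41 ± 0.49 for the Nrp1 probe at 131028306. No fitted difference is given for Pgf, since its LSEC signal was not above background. The probes under the unadjusted threshold include the dim Kdr probes at 76353385 and 76357639, which were above background on only 1 and 2 arrays.

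Genes that act with the family were read from their brightest probes. A total of 26802 genes measured on an endothelial array had median log2 ratios of -0.03, 0.07 and -0.03 in the TECs of HAK-1B, Hepa1-6 and KYN-2, and 10.3% of them had ratios of at least 1.5 and 13.7% of at most 0.66 in all 3. Of the 30 genes of VEGF receptor signaling, 2 were at least 1.5-fold higher and 10 at most 0.66 of LSEC in all 3 TECs, with medians of 0.07, -0.35 and -0.50. Sphk1, a kinase that makes sphingosine 1-phosphate, lay at 6.17 in LSEC and at 9.73, 10.78 and 9.96 in the TECs and was called in all 3. Src, a kinase downstream of VEGFR-2, had log2 ratios of 3.15, 3.38 and 1.14, and Map2k1, the MAP kinase kinase MEK1, of 1.18, -0.18 and 1.45. Ptprb, the endothelial phosphatase VE-PTP that restrains VEGFR-2, lay at 17.25 in LSEC and at 13.36, 13.43 and 14.36 in the TECs. Pik3ca, a catalytic subunit of PI3 kinase, lay at 12.91 and at 9.79, 9.59 and 8.81, and both were called lower in all 3 TECs. Hspb1, a small heat shock protein downstream of p38, had log2 ratios of -2.94, -4.30 and -2.55.

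Of 22 genes that VEGF is known to induce in endothelium, 10 were at least 1.5-fold higher and 3 at most 0.66 of LSEC in all 3 TECs. Their median log2 ratios were 1.07, -0.03 and 1.16. Apln, a peptide of sprouting vessels, lay at 5.85 in LSEC and at 8.93, 9.12 and 13.08 in the TECs of HAK-1B, Hepa1-6 and KYN-2. Esm1, a secreted proteoglycan of tip cells, lay at 9.51 and at 11.79, 13.20 and 15.65. Tissue factor, F3, lay at 6.13 and at 9.85, 9.61 and 11.30. All 3 were highest in KYN-2 TEC and were called there, where Pgf was also highest. At the other end Spry4, an inhibitor of receptor kinase signaling, had log2 ratios of -3.63, -2.89 and -1.81, Ets1, a transcription factor, of -1.69, -1.65 and -1.11, and the Notch ligand Dll4 of -1.30, -1.79 and 0.21.

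The 18 hypoxia genes, which include targets of the transcription factors that also induce Vegfa, had medians of 1.08, 0.97 and 1.62, with 9 higher and 1 lower in all 3 TECs. Egln3, a prolyl hydroxylase of the oxygen-sensing pathway, lay at 6.05 in LSEC and at 10.54, 10.59 and 12.01 in the TECs. Slc2a1, the glucose transporter GLUT1, lay at 9.86 and at 13.72, 13.38 and 14.56, and both were called in all 3. Bnip3, a mitophagy receptor, had log2 ratios of 2.18, 2.20 and 3.71. Epas1, which encodes HIF-2α, went the other way and lay at 16.37 in LSEC and at 13.33, 13.08 and 14.09. Adm, the peptide adrenomedullin, had ratios of -2.80, -1.45 and 0.999, and Ndrg1 of -0.55, -0.57 and 0.96.

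Among class 3 semaphorins and plexins, the other partners of neuropilins, 11 of 12 genes were measured, and 5 were lower and 0 higher in all 3 TECs, with medians of -1.14, -0.77 and -0.92. Sema3d lay at 11.25 in LSEC and at 7.40, 5.42 and 6.46 in the TECs and was called in all 3. The plexin receptors Plxna2, at -2.90, -2.33 and -1.01, and Plxnd1, at -1.82, -1.90 and -1.31, also lay below LSEC in each TEC. Sema3b was high in Hepa1-6 TEC (12.97) and in Hepa1-6 cells (10.02) but lay at 5.47 in LSEC and 7.29 in KYN-2 TEC and was not above background in HAK-1B TEC. Sema3c was likewise at 8.76 and 8.92 in Hepa1-6 TEC and cells, against 4.71 in HAK-1B TEC and no signal above background in LSEC or KYN-2 TEC. Sema3a did not exceed 5.35 on any array.

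The lymphatic genes did not move as 1 group, with medians of -0.22, -0.52 and 0.62. Pdpn, the lymphatic surface protein podoplanin, lay at 6.55 in LSEC and at 12.79, 8.59 and 12.07 in the TECs. Figf, which encodes the ligand VEGF-D, was not above background in LSEC and reached 5.18, 6.34 and 5.68 in the TECs and 6.13 in the cells. Lyve1 had log2 ratios of -0.22, 0.97 and 1.88. The transcription factors Nr2f2, at -3.44, -2.61 and -2.44, and Sox18, at -1.99, -2.45 and -1.51, and the integrin Itga9, at -2.07, -2.21 and -1.71, lay below LSEC as Flt4 did.

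**Figure D5:**
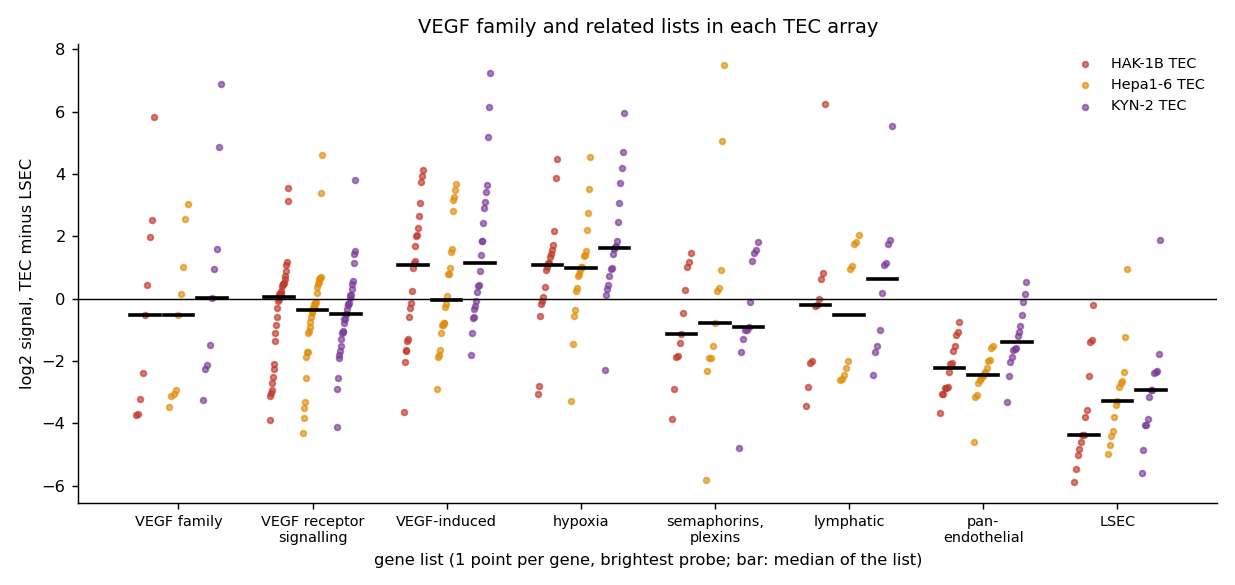
Log2 signal of each TEC minus LSEC (vertical axis) for genes of the family and of 7 related lists (horizontal axis), 1 point per gene from its brightest probe and a bar at each median. The hypoxia medians lie at 1.08, 0.97 and 1.62, and the pan-endothelial and LSEC medians lie below 0 in all 3 TECs.

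Markers of the sinusoidal state were also lower in TECs. Of the 13 LSEC markers, 12 were at most 0.66 of LSEC in all 3 TECs and 6 were called lower in all 3, with medians of -4.36, -3.29 and -2.94. Dnase1l3, a secreted nuclease, lay at 14.55 in LSEC and at 9.11, 9.86 and 9.71 in the TECs, and the angiocrine factor Wnt2 lay at 15.08 in LSEC and at 9.21, 10.10 and 11.04 in the TECs. The coagulation factor gene F8 lay at 12.78 and at 8.18, 8.54 and 8.73. Lyve1 was the exception in this list, and the scavenger receptor Stab1 and the Fc receptor Fcgr2b changed least among the others, with mean log2 ratios of -1.91 and -2.16. Of the 14 pan-endothelial markers 10 were lower in all 3 TECs. Tek, the angiopoietin receptor Tie2, was called lower in all 3, at -3.66, -4.58 and -3.30. Eng had ratios of -3.06, -3.14 and -2.48 and Robo4 of -3.05, -3.10 and -1.64, whereas Vwf had -1.06, -1.51 and 0.53 and Emcn -0.74, -1.58 and 0.15.

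Markers of further cell types moved as well. The 12 hepatocyte genes had medians of -3.27, 0.36 and -2.32, the 12 stellate cell and fibroblast genes 0.48, 1.39 and 1.24, and the 6 platelet genes -2.78, -2.39 and -0.55. Col1a1, the main fibrillar collagen, was not above background in LSEC and lay at 9.46, 10.87 and 11.53 in the TECs. Arg1 and Spp1, made by macrophages in tumors, were called higher in all 3 TECs, and the Kupffer cell genes Clec4f, at -5.56, -2.02 and -2.62, Timd4 and Cd163 lay lower. S100a8 and S100a9, abundant in neutrophils, had ratios of 7.03, 4.37 and 1.62 and of 6.9998, 4.59 and 1.15. The part of these cells in the signals of the ligands and receptors was not tested.

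The genes most like Vegfa and Kdr were found by the smallest root mean square difference of log2 signals after each gene was centered over the 5 arrays, among 27056 genes. For Vegfa these were Dach1 (0.29), Tnip3 (0.35), Nts (0.48), Lat2 (0.48) and Nfil3 (0.49), with Pearson correlations of 0.980 to 0.997. Dach1 and Tnip3 were above background on the 3 TEC arrays alone. For Kdr they were Bmp2 (0.17), Gpr182 (0.31), Stab2 (0.34), Ptprb (0.38) and Gimap6 (0.40), with correlations of 0.9965 to 0.9996, and none of these was above background in Hepa1-6 cells. With 5 arrays that differ in tissue and slide, such likeness is common, since 264 genes correlated with Vegfa above 0.95 and 1021 with Kdr.

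The promoters of the family were read from RefSeq on GRCm38.p6, as the 250 bases before each start, and all 9 genes matched, with 11 windows. The letters GGGCGG, the GC box, were searched on both strands and found in 10 of the 11 windows, and in 32.7% of 32851 windows of all genes. The family's windows held 59.2% to 76.4% G and C, and the windows of all genes were not matched for this. ACGTG, the core of the hypoxia response element, was found in 1 of 11, the Vegfa start inside the gene, and in 16.6% of all windows. GGAA, the core bound by ETS factors of endothelium, was found in 9 of 11 and in 93.4% of all. The windows of Vegfa, highest in TECs, and of Kdr, highest in LSEC, are shown with GGGCGG of either strand in capitals, at chr17:46032378-46032627 and chr5:75978456-75978705, both read on the minus strand.
Vegfa promoter: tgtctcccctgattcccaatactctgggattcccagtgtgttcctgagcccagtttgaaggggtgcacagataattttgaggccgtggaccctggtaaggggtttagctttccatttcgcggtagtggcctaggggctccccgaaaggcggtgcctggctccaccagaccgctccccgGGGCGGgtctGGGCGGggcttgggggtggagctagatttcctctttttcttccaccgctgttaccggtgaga
Kdr promoter: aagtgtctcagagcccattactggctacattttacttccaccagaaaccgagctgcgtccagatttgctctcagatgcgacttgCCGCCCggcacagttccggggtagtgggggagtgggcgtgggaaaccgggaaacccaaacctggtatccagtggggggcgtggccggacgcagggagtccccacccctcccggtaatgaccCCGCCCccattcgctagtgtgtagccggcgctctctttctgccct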

How the data were processed

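RNA was hybridized in 1 colour to 5 Agilent mouse arrays of 60-base probes. The authors deposited the intensity of each spot, background-subtracted and detrended within the array, with its local background, error estimate and flags, and a table of normalized intensities. The labels give Feature Extraction 9.5.1.1, the file headers 10.7.1.1. Here control spots were left out, log2 signals of all 5 arrays were quantile normalized together, and the rule of size in the methods was applied to probes that either array of a pair flagged as present, without lincRNA probes. "At least" folds set a probe below background at the higher of its own signal and the lowest signal well above background on that array. limma 3.58.1 (R 4.3.3) was fitted to TECs against LSEC. Other steps used Python 3.11.15, numpy 2.4.6 and pandas 2.3.3. Scripts were tested on simulated data. The sequence of 1 probe is not reported here. A gene took its brightest probe in lists. Named genes were all 9 members, the 5 genes most like Vegfa and Kdr, and up to 3 highest and 3 lowest genes of each of 13 lists by mean log2 ratio; other list members named were chosen after their values were seen. The members and lists were chosen with earlier results of these data known. Alternatives were the 75th percentile scale, pairwise quantile normalization, normexp with an offset of 50, the deposited table, filters on flags, no Z-score, other rules for probes, and each TEC left out.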

Additional observations from a re-analysis of the deposited data

Results flagged for a closer look

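The Vegfc probe at 55244696 (mm9) lay above LSEC in KYN-2 TEC and below LSEC in Hepa1-6 TEC. The difference between these TECs was 2.40 on the log2 scale, and with 1 array for each it was not tested. Its size depended on the scaling. The log2 ratio of Hepa1-6 TEC to LSEC was -1.08 here, -0.10 on the 75th percentile scale and -0.46 with normexp. That of KYN-2 TEC was 1.32, 1.28 and 0.74. The other 2 Vegfc probes placed both TECs above LSEC.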

How the results depend on the processing

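No paired analysis was possible because no condition had a second array. A fit with slide was not run, since slides coincided with the groups. In all 3 TECs at once 3 genes were called. Each TEC left out in turn gave 3 to 3, a count that could only stay or rise, since the calls themselves were kept. No Z-score gave 7, and the brightest probe alone gave 1, Kdr. The 75th percentile scale gave 2, without Kdr, which was not called in KYN-2 TEC there, and normexp gave 4, with Flt1 added. In Hepa1-6 TEC 3 genes were called, against 5 on the 75th percentile scale, 6 with normexp, 8 with no Z-score and 1 with the brightest probe alone. In KYN-2 TEC 4 became 8 and in Hepa1-6 cells 4 became 7 with no Z-score. The cause was not tested, beyond the wider rule that no Z-score makes by its construction and the fewer probes that the brightest alone leaves. limma called 0 probes of the family in every setting run, with 10 to 14 of them at an unadjusted p under 0.05 and smallest adjusted p-values of 0.137 with normexp to 0.982 without KYN-2 TEC. The 75th percentile scale moved the median log2 ratio of all kept probes in Hepa1-6 TEC from 0.05 to 0.43. The share of higher calls over the array moved in Hepa1-6 TEC from 66.02% to 55.2% with normexp and to 53.0%, and in Hepa1-6 cells from 34.9% to 46.2%, among probes well above background on both arrays. Of 180 log2 ratios of brightest probes under alternatives 156 stayed within the spread. The spread was the standard deviation of a gene's 3 TEC ratios, and for Hepa1-6 cells the upper ratio of the rule of size. It was 2.69 for Pgf, so that a fall in HAK-1B TEC from 1.97 to 0.83 with normexp counted as within it. Vegfb, Pgf and Flt4 had 1 probe each, so the median of the probes could not move them. The 156 thus overstates how little the ratios moved. Of the 180 ratios 7 changed sign, 4 of them of Nrp2, at -0.43, -3.13, -0.87 and -3.86 with the median of its probes. Differences within the spot error were not detectable on single arrays. That error is the software's estimate for 1 spot, and variation between arrays of a condition was not measured. A difference larger than the spot error is therefore not shown to exceed that variation.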
